A study of Danio rerio with 4 samples.

Results

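The subject is gene expression in whole zebrafish embryos labelled as copper-treated and as untreated at 24 hours post fertilization (hpf), the end of somite formation, when the heart has begun to beat and the first pigment cells appear. A whole-embryo RNA sample labelled 24 hpf and 3.9 µM copper was set against a whole-embryo RNA sample labelled 24 hpf and 0 copper, each on 1 one-colour Agilent array. The labels name no strain, allele, copper salt or start of exposure, and nothing says how many embryos were pooled. A gene was measured when 2 or more of its probes were well above background on both 24 hpf arrays, and 6710 of 13366 named genes met this rule. The genes described are the 3341 of them whose probes all differed in the same direction. Another 2 arrays, labelled 96 hpf with 3.9 µM and with 0 copper, were used for the normalization and are quoted for comparison. With 1 array per group there is no replicate check and no p-value. Of the 18 tissue markers looked for, 17 had a named probe, and all 17 were well above background on both 24 hpf arrays, among them muscle myod1, notochord tbxta, globin hbae3, epidermal krt4 and endothelial cdh5.

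Copper is an essential cofactor of cytochrome c oxidase, superoxide dismutase and lysyl oxidases, and cells take it up through Ctr1 (slc31a1), pass it to its targets by small chaperones and export it through Atp7a. In excess it generates reactive oxygen species and damages proteins, and cells answer through the metal-responsive factor Mtf1, metallothioneins and heat shock proteins. In fish larvae copper is known for damage to the hair cells of the lateral line and for delayed hatching.

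The groups follow the sample titles, whereas the names of the scanner files give the opposite treatment at both ages. The authors' deposited table follows the file names: of its 5555 listed probes shared with the analysis, 5555 had the opposite sign to the labels, and after the sign was turned the median gap was 0.0003. Differences are on the log2 scale and run as labelled copper minus labelled control, so that 1 is a 2-fold difference. Under the file names each sign below is turned, and a gene given as higher in the array labelled copper was lower in copper. In a whole embryo, fewer cells of a type and less RNA per cell cannot be told apart.

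At 24 hpf 1392 genes (20.7% of those measured) were higher on every probe in the array labelled copper and 1949 genes (29.0%) were lower on every probe, while 3369 genes (50.2%) had probes of both signs. On every probe, 72 genes were 2-fold or more higher (1.07%) and 52 were 2-fold or more lower (0.775%). The median difference over all measured genes was 0.02. A rule that all probes share a sign is harder to meet with more probes, also where their signs are unrelated. By this rule 59.5% of genes with 2 probes agreed, 36.5% with 3, 28.8% with 4 and 24.2% with 5 or more. The tissue and pathway counts that follow are to be read against the shares over all genes. Under 75th-percentile scaling 1440 of the 6710 genes were higher and 1364 lower on every probe. Scaling also set the balance of directions, with 41.7% of agreeing genes on the higher side after quantile normalization, 51.4% after 75th-percentile scaling and 52.0% after a loess fit between the arrays.

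**Figure D1:**
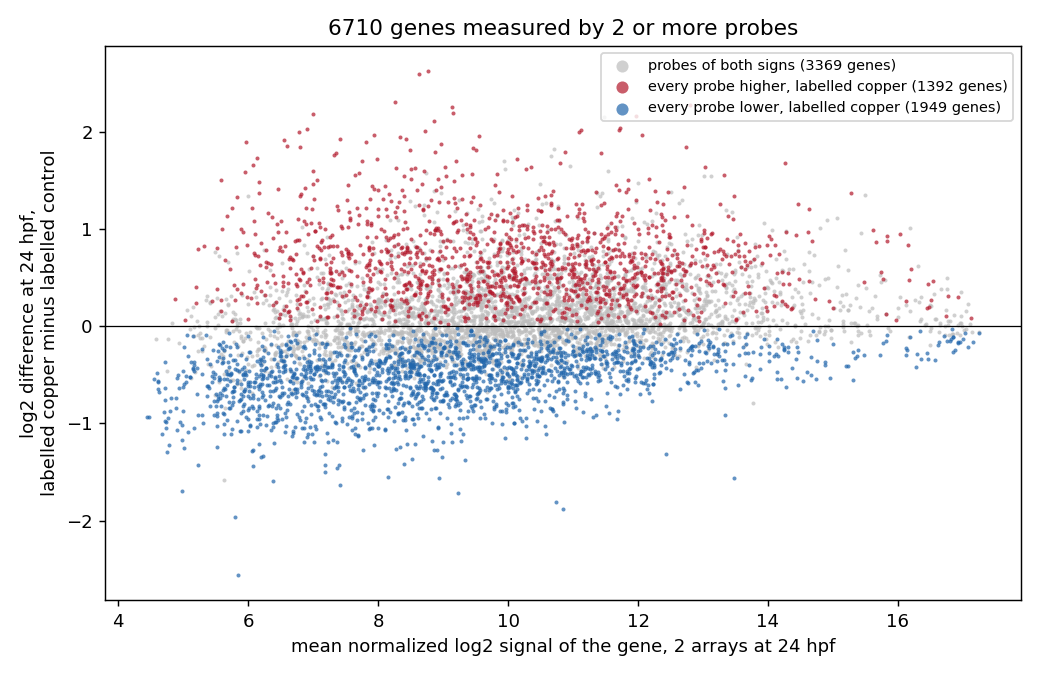
Each point is a gene measured by 2 or more probes, with its mean normalized log2 signal over both 24 hpf arrays on the x axis and its mean log2 difference, labelled copper minus labelled control, on the y axis; red genes were higher and blue genes lower on every probe. The 1949 blue genes lie at dimmer signal (median 8.93) than the 1392 red genes (median 10.01).

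The genes higher and lower on every probe differed in level, and those 2-fold higher and lower also in how their probes were placed. The genes higher on every probe had a median normalized log2 signal of 10.01 and a median difference of 0.62, and the lower genes had a median signal of 8.93 and a median difference of -0.48. Probes of a gene often disagreed in size, by 2-fold or more in 28.9% of measured genes, and the dimmest probe of a gene gave the higher difference in 80.9% of genes. The 72 genes 2-fold higher on every probe spanned a median of 27.5 kb in the RefSeq table and the 52 genes 2-fold lower 8.2 kb, against 15.3 kb over all measured genes. Among the 52 genes 2-fold lower on every probe, 25 were measured only by probes whose Zv9 spans in the authors' deposited table overlapped. Among the 72 genes 2-fold higher this was so for 4, and for 62 no probes overlapped. Overlap was counted for these 2-fold genes only, so no share over all measured genes stands beside it. The shared length differed, from a few bases in tbx4 to the whole span in gnrh3. Overlapping probes thus read the same or adjoining stretches of transcript. The part of signal, probe position and probe overlap in the differences was not tested.

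The genes with the largest agreement on the higher side included matrix, muscle and endoplasmic reticulum genes. The calreticulin family chaperone calr3b had a mean normalized log2 signal of 10.09 in the array labelled copper and 7.46 in the array labelled control, and its 3 probes differed by 2.05 to 3.16. The cartilage and notochord collagen col2a1a had signals of 13.94 in the array labelled copper and 11.66 in the array labelled control, with 3 probes between 2.03 and 2.62, the probes lying on Zv9 chromosome 8 between 21756128 and 21756429. Another col2a1a probe was not well above background on both arrays. On the weakest of the 3 probes calr3b was 4.15-fold and col2a1a 4.08-fold higher. The muscle methyltransferase smyd1b, which is needed for myosin assembly, had 12.09 in the array labelled copper and 10.09 in the array labelled control, and its 2 probes gave 1.99 and 2.01. The tenascin tncb, a matrix glycoprotein, differed by 2.11 ± 0.22 (SD over 2 probes). The paired-box factor pax7b, which marks muscle progenitors and pigment cell precursors of the neural crest, differed by 1.91 ± 0.02 (SD over 2 probes). Its paralog pax7a was lower (-0.89 ± 0.38, 3 probes, and -0.39 under normexp background correction).

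Several of the other leading genes encode signalling enzymes and metabolic regulators. The phosphatase subunit ppp2r5eb, a regulatory subunit of PP2A, had 9.92 in the array labelled copper and 7.33 in the array labelled control, with probe differences of 2.58 and 2.61. The kinases gsk3ab (1.92), camk2g1 (1.97) and dclk2a (1.84) were also higher on every probe. So were the mitochondrial serine hydroxymethyltransferase shmt2 (2.18), the S-adenosylmethionine sensor of the TORC1 pathway samtor (1.85) and the lysosomal membrane protein scarb2a (1.63). The set was completed by csrnp1b (2.02), ctdspl2b (1.93) and tnks1bp1 (1.73). The 15 leading genes were chosen among those keeping their sign under the other normalizations, and 14 of them were read by probes that did not overlap on Zv9, samtor being the exception. Under normexp the differences of several were smaller, with pax7b at 0.95, tnks1bp1 at 0.89, samtor at 1.05, dclk2a at 1.14, camk2g1 at 1.23, csrnp1b at 1.25 and shmt2 at 1.498.

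On the lower side the leading genes were of other kinds. The T-box factor tbx4, known for its part in hindlimb and pelvic fin formation, had a mean normalized log2 signal of 4.57 in the array labelled copper and 7.13 in the array labelled control. Its 2 probes differed by -2.72 and -2.40. They lie end to end on Zv9 chromosome 15, at 26759905 to 26759964 and 26759959 to 26760018, and share only a few bases. Under normexp their mean was -1.16. The oxygen sensor egln3, a prolyl hydroxylase that marks HIF proteins for degradation and is itself a HIF target, had 9.83 in the array labelled copper and 11.63 in the array labelled control. Its 2 probes, which did not overlap, gave -2.21 and -1.40. The proapoptotic p53 target bbc3 (Puma) differed by -1.71 ± 0.03 over 2 overlapping probes.

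Genes of transcription, the cell surface and hormones followed. The heme-responsive repressor bach1a differed by -1.63 ± 0.02 (SD over 2 probes that did not overlap), and cd99, a cell surface glycoprotein, by -1.56 ± 0.23 over 4 probes that did not overlap. The immediate early factor fosab differed by -1.46 ± 0.09 over 3 probes. The neuropeptide gene gnrh3 differed by -1.69 ± 0.30 over 2 probes with the same Zv9 span, which thus read 1 position. Smaller differences were those of cd9r (-1.43), ttll2 (-1.34), the linker histone h1-10 (-1.32), the cholesterol hydroxylase ch25h (-1.28), the complement subunit c1qc (-1.25), the egg envelope gene zp2l2 (-1.24) and the hormone gene pth1a (-1.19). Under normexp gnrh3 was at -0.58, c1qc at -0.44, zp2l2 at -0.52, ch25h at -0.62, ttll2 at -0.66 and pth1a at -0.67. All probes of a gene overlapped for 7 of the lower genes described here and none did for 6.

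**Figure D2:**
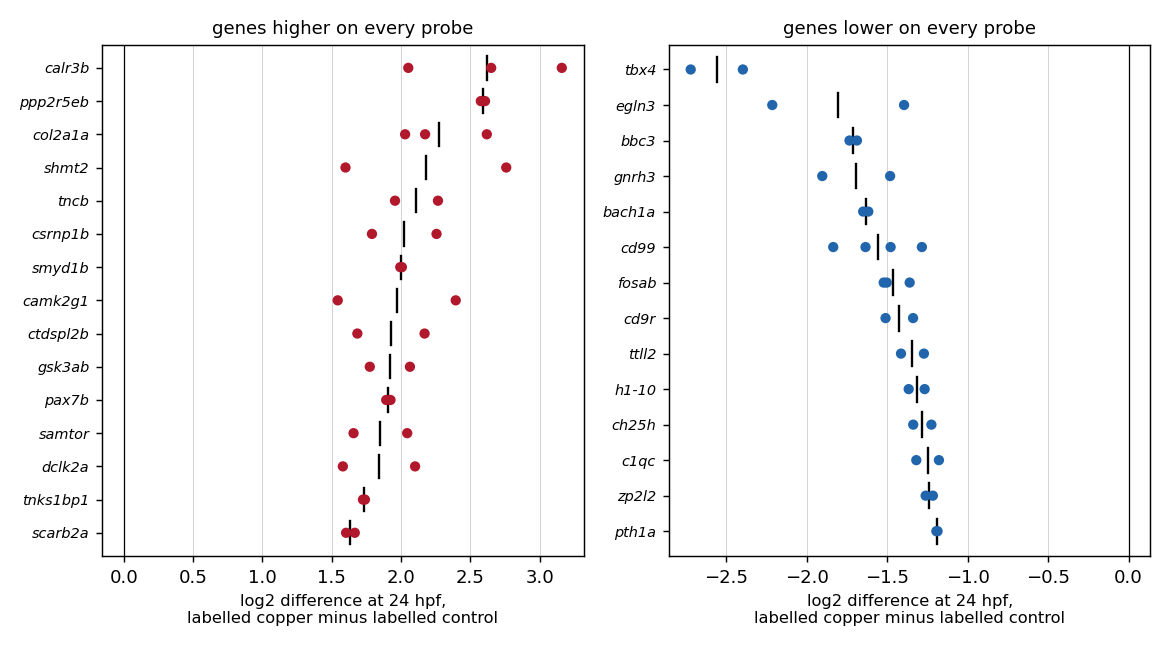
Points are single probes of the leading genes described in the text, those with the largest weakest-probe difference in each direction, black bars their means, and the x axis is the log2 difference at 24 hpf, labelled copper minus labelled control. The probes of the higher genes all lie at 1 or more and those of the lower genes all at -1 or less.

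Genes that handle copper and other metals showed little that was common to all their probes. Metallothionein mt2 was higher on its 3 probes, which gave 0.98, 0.74 and 0.03, with a mean signal of 12.67 in the array labelled copper and 12.09 in the array labelled control. With 75th-percentile scaling the probe at 0.03 gave -0.22, and with normexp correction of the background it gave -0.03, so that mt2 had probes of both signs there. A second metallothionein-like gene, mtbl, was lower on both probes (-0.94 and -0.81), with a mean signal of 11.25 in the array labelled copper and 12.12 in the array labelled control. The 2 metallothionein genes therefore differed in opposite directions. Of the 6 measured members of the metallothionein and metal-responsive list, 1 was higher and 1 lower, and the transcription factor mtf1 (3 probes, -0.21 to 0.07), the zinc exporter slc30a1b, the ferritin fthl27 and the inducible heat shock gene hsp70l (-0.0009 and 0.05) had probes of both signs.

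Of the 10 measured copper handling genes none was higher and 2 were lower on every probe, against 20.7% and 29.0% of all genes, and the list's median was -0.08. The mitochondrial copper chaperone cox17, which delivers copper for cytochrome c oxidase, was lower by a small amount, with 13.64 in the array labelled copper and 13.90 in the array labelled control, and 2 probes at -0.30 and -0.23. The lysyl oxidase loxl2a was lower on 2 dim probes (-1.22 and -0.10), but the second of these was 0.31 under 75th-percentile scaling. The copper importer slc31a1 was read by 6 probes, of which 5 were lower (-1.05 to -0.27) and 1 was higher (1.57). Ceruloplasmin cp, the superoxide dismutases sod1 and sod3a, the copper-binding regulator commd1 and the assembly factor cox11 had probes of both signs and means between -0.16 and 0.20. The phosphate and copper carrier slc25a3b had 3 probes between -0.15 and 0.24 and 1 at 2.24.

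Another 11 genes of these lists had 1 probe well above background on both arrays and hence no gene value. Single probes gave 0.29 for the copper exporter atp7a, 0.41 for heme oxygenase hmox1a, 0.24 for the zinc exporter slc30a1a and 1.88 for the zinc importer slc39a10. They gave -0.22 for the copper chaperone atox1 and -0.65 for sco2, which inserts copper into cytochrome c oxidase. The probes of cox16, cox19, slc25a3a, slc31a2 and steap4 lay between -0.61 and -0.02. The list of copper-dependent enzymes and genes of their families held 7 measured members, 2 higher and 2 lower. Among them loxl2b, a lysyl oxidase of the matrix, was higher on 3 probes (0.83 ± 0.69, SD). The melanin synthesis gene dct, listed as a member of the tyrosinase family and not as a known copper enzyme, was higher on 3 probes (0.74 ± 0.63, SD). Under 75th-percentile scaling and normexp dct had probes of both signs.

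**Figure D3:**
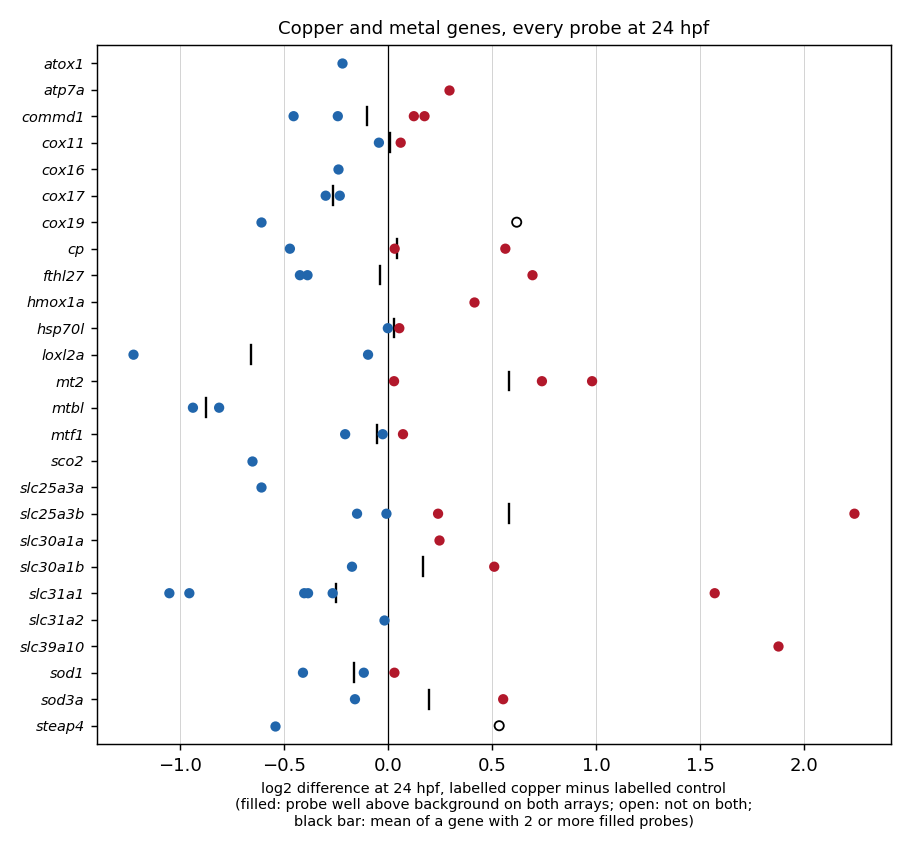
Each row is a gene of the copper handling or metal-responsive lists and each point a probe, with the log2 difference at 24 hpf, labelled copper minus labelled control, on the x axis. Among genes with 2 or more probes well above background on both arrays, most have such probes on both sides of 0. The 6 probes of slc31a1 reach from -1.05 to 1.57.

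Chaperone genes stood higher in the array labelled copper more often than genes in general. Of 18 measured genes of a heat shock and chaperone list, 12 were higher on every probe, none was lower and 6 had probes of both signs, with a median of 0.88 against 0.02 over all genes. Under 75th-percentile scaling 10 were higher and none lower. The Hsp110 family gene hspa4a had a mean signal of 10.37 in the array labelled copper and 8.54 in the array labelled control, with 3 probes between 1.02 and 2.43. The mitochondrial chaperonin hspd1 (Hsp60) had 12.60 in the array labelled copper and 11.09 in the array labelled control, with probes at 1.15 and 1.86. The Hsp40 cochaperone dnaja1 had 9.72 in the array labelled copper and 8.44 in the array labelled control, a difference of 1.28 ± 0.36 (SD over 2 probes). Each of these 3 genes was 2-fold or more higher on every probe.

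The other chaperones covered several compartments. The mitochondrial Hsp70 hspa9 differed by 1.13 ± 0.40 (SD over 4 probes), the collagen chaperone serpinh1b (Hsp47) by 1.55, the myosin chaperone unc45b by 0.94, the Hsp90 cochaperone fkbp4 by 0.69 and hsp90aa1.2 by 0.85. Of these unc45b and fkbp4 had probes of both signs under 75th-percentile scaling. The stress-inducible hsp70.3 differed by 0.85, whereas hsp70l differed by 0.03 and the small heat shock gene hspb1 by -0.04, both with probes of both signs. The constitutive hspa8 had a mean of 1.01 but also had probes of both signs. At 96 hpf the median of the same list was -0.31, against -0.12 over all measured genes.

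Genes of the endoplasmic reticulum stress list were also more often higher. Of 29 measured members 18 were higher on every probe, 5 were lower and 6 were split, with a median of 0.69; under 75th-percentile scaling the counts were 15 and 4. Besides calr3b, the members were the Hsp110-like hyou1 (1.31 ± 0.26, 3 probes), the BiP gene hspa5 (1.19), the Hsp90 paralog hsp90b1 (0.99 ± 0.56, 2 probes) and the disulfide isomerase pdia5 (0.99 ± 0.03, 2 probes). The transcription factors of this response, atf4b (1.24) and xbp1 (0.79), were higher on every probe, while atf4a and ddit3 were split. Under 75th-percentile scaling xbp1 had probes of both signs. Lower on every probe were the retrotranslocation gene derl1 (-0.82), the oxidase ero1b (-0.58), selenos (-0.44), asparagine synthetase asns (-0.44) and dnajb9b (-0.43), of which ero1b was split under 75th-percentile scaling and loess. At 96 hpf the median of the list was -0.46, against -0.12 over all measured genes.

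**Figure D4:**
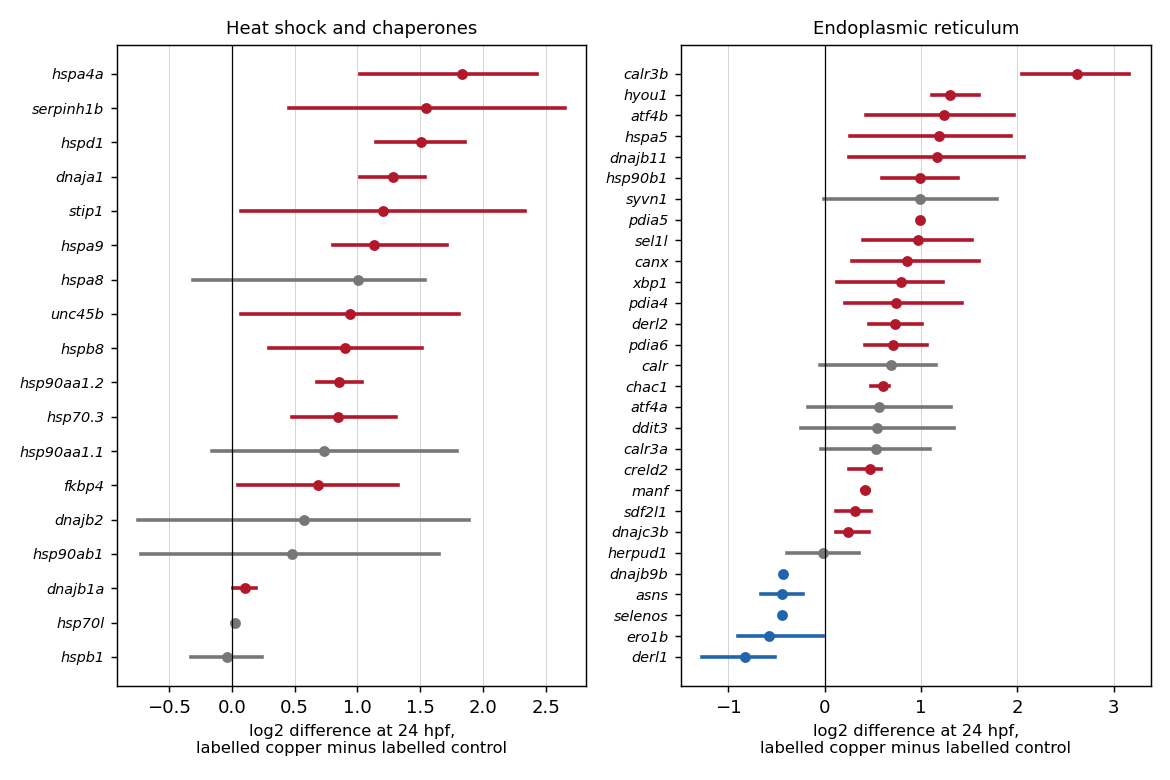
Dots are gene means and lines run from the lowest to the highest probe for the 18 heat shock and chaperone genes (left) and the 29 endoplasmic reticulum genes (right), with the log2 difference at 24 hpf, labelled copper minus labelled control, on the x axis; red genes were higher on every probe, blue genes lower, grey genes split. No chaperone gene is blue, and hspa4a and calr3b lead the panels.

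Genes of cell division were more often higher too. In the cell cycle list 18 of 36 measured genes were higher and 4 lower on every probe, with a median of 0.35. Under 75th-percentile scaling only 9 were higher and 4 lower, against 1440 higher of all 6710 genes. The mitotic kinesin kif20a had 11.72 in the array labelled copper and 10.75 in the array labelled control (0.97 ± 0.24, SD over 2 probes). Other higher genes were the cytokinesis regulator racgap1 (1.01), the spindle protein nusap1 (0.80) and the anaphase activator cdc20 (0.55 ± 0.12, 3 probes). Of 40 DNA replication and repair genes 12 were higher, among them the clamp pcna (0.83 ± 0.16, 2 probes), the reductase subunit rrm1 (0.94) and mcm5 (0.92), and 8 were lower, between -0.26 and -0.21. Under 75th-percentile scaling 8 were higher and 8 lower, and mcm5 was split. At 96 hpf the medians of these lists were -0.74 and -0.44, against -0.12 over all measured genes.

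RNA splicing factors were likewise more often higher, except under 75th-percentile scaling. Of 60 measured, 25 were higher and 4 lower on every probe, with a median of 0.48. Under 75th-percentile scaling 12 were higher and 4 lower, with 1440 of all 6710 genes higher, a similar share. The SR protein srsf1b differed by 1.24 ± 0.99 (SD over 4 probes), the branch point binding protein sf1 by 1.06 ± 0.79 (3 probes) and the helicase dhx15 by 1.26 ± 0.59 (2 probes). Of 46 translation factors 14 were higher and 4 lower, with a median of 0.39, led by the helicase eif4a1b (1.12 ± 0.24, 2 probes) and the scaffold eif4g1a (0.71 ± 0.23, 4 probes). Under 75th-percentile scaling 9 translation factors were higher and 5 lower, also near the share of higher genes over all genes. The 56 cytosolic ribosomal protein genes did not share a direction, with 10 higher, 19 lower and a median of -0.05. That median was -0.50 under 75th-percentile scaling, where 42 were lower, and -0.11 under the loess fit, so the size of their difference changed with the scaling. Among 31 proteasome genes 6 were higher and 5 lower, against 3 higher and 7 lower under 75th-percentile scaling.

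In energy metabolism the hypoxia list had a median of -0.31, but its balance of directions changed with the scaling. Of 16 measured members 6 were lower on every probe (37.5%, against 29.0% of all genes) and 1 was higher. Under 75th-percentile scaling 4 were lower and 4 higher. Besides egln3, the lower genes were the growth factor binding proteins igfbp1b (-1.04 ± 0.41, 2 probes) and igfbp1a (-0.74 ± 0.07, 3 probes), the collagen prolyl hydroxylase p4ha2 (-0.89 ± 0.45, 3 probes), lactate dehydrogenase ldha (-0.70) and loxl2a, of which ldha and loxl2a were split under 75th-percentile scaling and loess. The lipid droplet gene plin2 was higher (0.97). Glycolytic genes were mixed, with 2 of 22 higher, 6 lower and a median of 0.11. The lower ones included pgam1a (-0.68 ± 0.31, 3 probes), pgk1 (-0.58) and gpia (-0.52), and the muscle phosphofructokinase pfkmb was higher (0.78).

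Genes of the mitochondrial respiratory chain were more often lower. Of 39 genes of the respiratory chain and ATP synthase 18 were lower and 5 higher on every probe, while the median was -0.055. The higher ones were ndufa9a (1.00 ± 0.04, 2 probes), ndufv1 (0.75 ± 0.30, 3 probes) and the ATP synthase subunits atp5fa1 (0.97), atp5pb (0.83) and atp5f1d (0.26). Under 75th-percentile scaling atp5fa1 and atp5f1d were split. Of 7 measured subunits of cytochrome c oxidase none was higher, 3 were split and 4 were lower, beside 46.2% lower in the respiratory chain list. The lower subunits were cox5b2 (-1.22), cox6a2 (-0.97), cox4i2 (-0.90 ± 0.19, 2 probes) and cox6b2 (-0.13). Genes of pyruvate and citrate metabolism were more often higher, except under 75th-percentile scaling. Of 25 measured, 8 were higher and 2 lower, with a median of 0.37. Under 75th-percentile scaling 6 were higher and 3 lower, near the share of higher genes over all genes, 1440 of 6710. Among the higher were idh1 (0.59 ± 0.13, 3 probes), mdh1aa (0.65) and the E3 subunit gene dldh (0.52).

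Serine and one-carbon metabolism held 8 higher and 3 lower of 23 measured genes, with a median of 0.40. Under 75th-percentile scaling 4 were higher and 1 lower, with a median of 0.28. The share of higher genes was then not above that over all genes, 1440 of 6710. Beside shmt2, cystathionine synthase cbsa was higher (1.21 ± 0.80, 2 probes) and the glycine cleavage gene gcshb was lower (-0.81 ± 0.28, 2 probes). Lipid genes went both ways, with 12 of 42 higher and 11 lower, or 8 and 8 under 75th-percentile scaling. The monoacylglycerol lipase mgll (1.87 ± 1.03, 3 probes) and the acyl-CoA synthetase acsl3b (1.49 ± 1.01, 3 probes) were higher, and of the choline kinases chkb was higher (1.09) and chka lower (-1.42). In cholesterol synthesis, with 2 of 12 higher and 4 lower (4 and 3 under 75th-percentile scaling), the feedback regulator insig1 was higher (1.08 ± 0.26, 3 probes) and mevalonate kinase mvk lower (-0.52).

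Antioxidant genes showed no common direction after quantile normalization, with 5 of 28 higher, 7 lower and a median of -0.01, which was 0.03 under the loess fit. Under 75th-percentile scaling 2 were higher and 11 lower, with a median of -0.08, where 1364 of all 6710 genes were lower. The transketolase tktb (1.43 ± 0.82, 4 probes) was higher. Glutathione synthetase gss (-0.91, and -0.45 under normexp), the oxidative stress regulator nfe2l2a (-0.68 ± 0.01, 2 probes) and the mitochondrial glutaredoxin glrx2 (-0.34) were lower. The glutamate-cysteine ligase genes gclc and gclm, at means of 0.80 and 0.68, had probes of both signs.

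Inflammatory and myeloid genes were more often lower in the array labelled copper. Of 19 inflammatory response genes 10 were lower and 1 higher on every probe, with a median of -0.26, and of 24 myeloid and immune cell genes 12 were lower and 1 higher, with a median of -0.31. Under 75th-percentile scaling 8 were lower and 2 higher in each of these lists. The cytokine tnfb had a mean signal of 6.12 in the array labelled copper and 7.25 in the array labelled control (-1.13 ± 0.53, SD over 2 probes). The interferon factor irf7 differed by -1.02 ± 0.35 (2 probes), the prostaglandin synthase ptgs2b by -0.86 ± 0.38 (2 probes) and il1b by -0.70, il1b being split under 75th-percentile scaling and loess. Under normexp tnfb was at -0.65, irf7 at -0.615 and ptgs2b at -0.66. Among cell markers, the macrophage gene mpeg1.1 had 8.84 in the array labelled copper and 9.55 in the array labelled control, with a difference of -0.72 ± 0.09 (2 probes), and the Fc receptor chain fcer1gl differed by -0.88 ± 0.12 (3 probes). The neutrophil gene mpx was split at a mean of -0.19, and the myeloid factor spi1b was lower (-0.35) but split under 75th-percentile scaling and loess.

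Among p53 and apoptosis genes 11 of 27 were lower and 2 higher on every probe. The median was -0.18 and turned to 0.13 under 75th-percentile scaling, where 10 were lower and 1 higher. Besides bbc3, the caspase casp8 (-0.72 ± 0.01, 2 probes), the effector baxb (-0.71 ± 0.10, 2 probes) and the survival gene mcl1b (-0.77 ± 0.16, 2 probes) were lower. The p53 targets mdm2 and ccng1 were split, with means of 0.23 and 0.62. Immediate early genes were mostly split (14 of 20), with 3 higher, 3 lower and a median of 0.40. Among them klf2b (1.14) and ier5 (0.43) were higher, and dusp2 (-0.94) was lower beside fosab. Of 16 circadian clock genes 7 were lower, among them per3 (-0.63), per1b (-0.94), cry1a (-0.65) and cry1b (-0.87), and clockb was higher (0.40). Of these per1b was split under 75th-percentile scaling and clockb under normexp. The median of that list was -0.07, and 0.14 under 75th-percentile scaling, where 4 were lower and 3 higher.

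Matrix and muscle genes were more often higher than genes in general. Of 36 collagen and matrix genes 14 were higher and 3 lower on every probe, with a median of 0.51, and under 75th-percentile scaling the counts were 13 and 4. After col2a1a and tncb came the basement membrane collagen col4a5 (1.34 ± 0.38, 2 probes), the fibrillar collagens col1a1a (1.13) and col11a1a (1.11) and the lysyl hydroxylase plod2 (0.92 ± 0.08, 2 probes). The prolyl hydroxylase subunits p4ha2 and p4hb (-0.62) and the laminin lama5 (-0.54) were lower. Of 59 skeletal muscle genes 21 were higher and 3 lower, with a median of 0.29. Under 75th-percentile scaling 13 were higher and 4 lower, near the share over all genes, of which 1440 of 6710 were higher under that scaling. The creatine kinases ckmb (1.67) and ckma (1.25), the sarcoplasmic reticulum protein srl (1.02 ± 0.35, 2 probes) and the calcium buffer pvalb1 (0.77 ± 0.06, 2 probes) were among the higher genes. Under 75th-percentile scaling col11a1a and ckmb were split.

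The notochord and somite segmentation lists were more mixed in direction than the matrix list. In the notochord list 7 of 31 were higher and 6 lower, with a median of 0.13. Under 75th-percentile scaling 8 were higher and 4 lower, with a median of 0.29. Its higher members included col2a1a (2.27) and plod2 (0.92), and its lower members included lama5 (-0.54). The notochord homeobox factor noto, also lower, had 8.56 in the array labelled copper and 9.66 in the array labelled control (-1.10 ± 0.17, 2 probes). In the somite segmentation list 11 of 30 were lower and 6 higher, with a median of -0.08. The segmentation genes ripply2 (-1.25 ± 0.14, 3 probes), mespba (-1.11 ± 0.15, 2 probes), mespaa (-1.07 on both probes, which overlap), her7 (-0.83) and tbx6 (-0.73) were lower. The paired-box factor pax7b (1.91) and the Notch ligand dlc (0.90) were higher. The mesp genes are expressed in the forming somites.

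Genes of the retina and photoreceptor list were lower more often than genes in general, and those of the lens list were not. The RNA is of whole embryos, so the tissue that gave these signals is not known. Of 24 retina and photoreceptor genes 13 were lower and 3 higher on every probe, with a median of -0.41, or -0.13 under 75th-percentile scaling with 10 lower and 5 higher. The photoreceptor factor crx had 7.14 in the array labelled copper and 8.06 in the array labelled control (-0.93 ± 0.02, 2 probes). The transducin subunit gnb3a (-1.03 ± 0.03, 2 probes) and rhodopsin rho (-0.77) were lower. The signal of gnb3a was dim, at 5.52 in the array labelled copper and 6.55 in the array labelled control. Under normexp gnb3a was at -0.48 and crx at -0.65. At 96 hpf crx stood at 13.74 in the array labelled copper and 14.48 in the array labelled control. Of 25 lens genes 9 were higher, among them the crystallin crybb1 (1.01 ± 0.74, 3 probes) and the connexin gja8b (0.77), and 5 were lower, among them the filament gene bfsp2 (-1.04 ± 0.56, 3 probes).

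Neural genes showed no common direction. Of 59 progenitor and patterning genes 11 were higher and 16 lower, with a median of -0.002 that was 0.02 under 75th-percentile scaling, and of 47 neuronal genes 7 were higher, 7 lower and 33 split, with 11 higher and 4 lower under 75th-percentile scaling. The forebrain factor hesx1 was lower (-1.08 ± 0.21, 3 probes), as were zic5 (-0.60) and the dopamine synthesis gene th (-0.83). The motor neuron factor lhx4 (1.33) and the guidance cue sema3aa (1.29) were higher. Under normexp lhx4 was at 0.57, hesx1 at -0.57 and th at -0.38. In the neural crest list 9 of 26 were lower and 4 higher, with a median of -0.08. Under 75th-percentile scaling 5 were lower and 3 higher, and the median was 0.07. Beside pax7b, the homeobox gene msx3 (1.00 ± 0.02, 2 probes) was higher, while pax7a (-0.89, and -0.39 under normexp) and dlx4b were lower. Of 21 genes of melanin and pigment cells 5 were higher and 8 lower, among the lower the melanosome exchanger slc24a5 (-0.67 ± 0.06, 2 probes). Of 32 genes of the ear and lateral line 8 were higher and 6 lower, close to the shares over all genes on the higher side, with eya4 at 0.57 and dlx4b at -0.52.

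**Figure D5:**
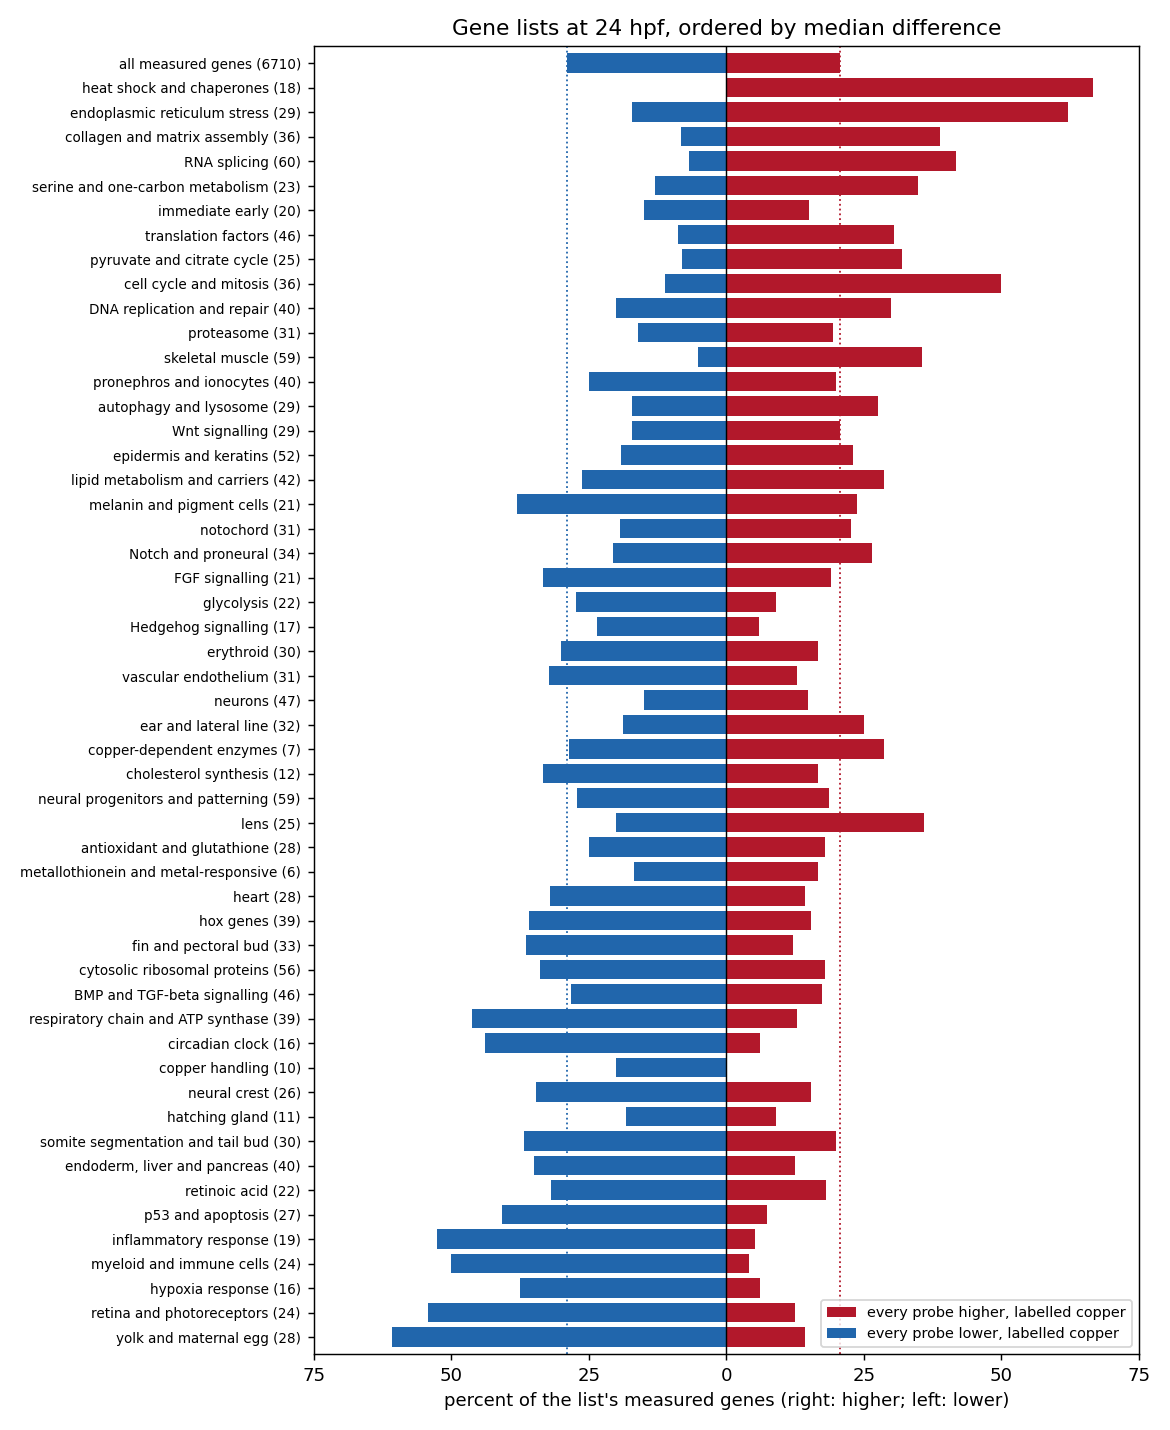
Bars give the percent of measured genes of each list that were higher (right, red) or lower (left, blue) on every probe in the array labelled copper, with the number measured in brackets and the lists ordered by their median difference. The dotted lines are the shares over all 6710 genes (20.7% and 29.0%); the heat shock and chaperone list has no bar on the left and the yolk and egg list has the longest.

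The remaining organs gave smaller or mixed differences. In the fin list 12 of 33 were lower and 4 higher; after tbx4 came fgf8a (-0.71), hoxd13a (-0.60 ± 0.02, 2 probes) and hoxa13b (-0.47). Of 39 hox genes 14 were lower, hoxd13a by the most, and 6 higher, led by hoxb3a (1.03) and hoxc12a (1.00). That balance reversed under 75th-percentile scaling, with 8 higher and 5 lower, and the hox median of -0.03 became 0.05. Of 40 endoderm, liver and pancreas genes 14 were lower and 5 higher, with a median of -0.13. The lower genes included the protease cpa4 (-1.02 ± 0.085, 2 probes, and -0.55 under normexp) and insulin insb (-0.68). Of 31 endothelial genes 10 were lower, among them the receptors flt1 (-0.86) and tek (-0.70), and 4 were higher, among them dab2 (0.99). The endothelial balance also reversed under 75th-percentile scaling, with 10 higher and 5 lower, and the median of 0.07 became 0.34.

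Blood, kidney, skin and heart were likewise divided. Of 30 erythroid genes 9 were lower, led by the mitochondrial iron importer slc25a37 (-1.20 ± 0.45, 5 probes, and -0.70 under normexp), and 5 were higher, led by the anion exchanger slc4a1a (0.90 ± 0.22, 2 probes), or 7 and 7 under loess. Of 40 pronephros and ionocyte genes 10 were lower, among them the ionocyte factor gcm2 (-0.79) and hnf1ba (-0.63), and 8 were higher, among them the phosphate carrier slc34a2b (1.89 ± 1.70, 2 probes) and the channel trpm7 (0.77), against 9 higher and 6 lower under 75th-percentile scaling. Under normexp slc34a2b was at 1.01. In the epidermis tp63 was higher (0.97 ± 0.16, 2 probes), with 12 of 52 genes higher and 10 lower, or 7 and 12 under 75th-percentile scaling. In the heart 9 of 28 were lower, among them scn5lab (-1.30, and -0.38 under normexp) and rgs4 (-0.91), and 4 were higher, or 7 higher and 6 lower under loess. Genes of the hatching gland list were mostly split (8 of 11), with ctsl.1 (-1.20, and -0.79 under normexp) and agr1 (-0.29) lower. Under 75th-percentile scaling 5 of the 11 were lower and 0 higher, where 1364 of all 6710 genes were lower. The level of ctsl.1 was low at 24 hpf, at 6.26 in the array labelled copper and 7.45 in the array labelled control. At 96 hpf ctsl.1 stood at 13.76 and 12.13, whereas agr1 was brighter at 24 hpf than at 96 hpf.

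Yolk and maternal egg genes were more often lower than genes in general, except under 75th-percentile scaling. Of 28 measured 17 were lower and 4 higher on every probe, with a median of -0.46, but under that scaling 7 were lower, 7 were higher and the median was -0.07. The egg envelope gene zp3a.1 had 7.09 in the array labelled copper and 8.19 in the array labelled control (-1.11 ± 0.15, 2 probes). The oocyte kinase mos differed by -1.01 ± 0.17 over 4 probes, 2 of them with the same Zv9 span, and by -0.58 under normexp. The vitellogenins vtg4 (-0.77) and vtg2 (-0.74) were lower, vtg4 being split under 75th-percentile scaling, and the germ cell helicase ddx4 was higher (1.59 ± 0.53, 2 probes, and 0.68 under normexp).

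Signalling pathways gave few shared directions. Of 29 Wnt genes 6 were higher, among them ctnnb1 (beta-catenin, 1.21 ± 0.51, 3 probes) and the secreted antagonist sfrp2 (1.45), and 5 were lower, among them the antagonist dkk1b (-0.69 ± 0.12, 2 probes) and the effector lef1 (-0.47), which was split under 75th-percentile scaling. Of 34 Notch and proneural genes 9 were higher, led by the ligand-activating ubiquitin ligase mib1 (1.45 ± 0.18, 3 probes), and 7 were lower, among them her5 (-0.90) and the ligand jag1b (-0.70 ± 0.04, 3 probes). In the FGF list 4 of 21 were higher and 7 lower, but 8 higher and 3 lower under 75th-percentile scaling, where fgf8b was split. The ligands fgf8a and fgf8b (-0.72) were lower and the receptor fgfr4 was higher (1.24), while fgfr3 was lower (-0.63). Of 46 BMP and TGF-beta genes 13 were lower, among them the receptors bmpr2a (-1.02) and tgfbr1a (-0.74), and 8 were higher, among them the ligand bmp2b (0.74). Under 75th-percentile scaling 12 were higher and 6 lower, the median of -0.05 became 0.07, and under normexp bmpr2a was at -0.28. Of 22 retinoic acid genes 4 were higher, among them the receptor raraa (0.60), and 7 were lower, among them the receptor rxrgb (-0.44), but under 75th-percentile scaling 3 were higher, 2 lower and rxrgb split. Of 17 Hedgehog genes 1 was higher, 4 were lower and 12 were split, and of 29 genes of autophagy and the lysosome 8 were higher and 5 lower.

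Some genes had probes that lay far apart in opposite directions, and their means describe neither. The 6 probes of profilin pfn2b ranged from -0.14 to 4.05, the 2 probes of crip2 stood at -0.16 and 3.81, the 2 probes of the tocopherol transfer gene ttpa at -1.19 and 2.94, and the 5 probes of ssbp3b ranged from -0.60 to 3.44. At the edge of the sign rule, the weakest probes of traf1, her4.1 and ptgesl were 0.00037 to 0.00055 above 0, those of rab3gap1, slc15a2 and gjb9b lay between -0.00029 and -9e-05, and prelid1a, afp4 and eef2b, each with a probe at 0, were left outside.

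The genes that differed at 24 hpf mostly did not differ in the same way at 96 hpf. Of the 72 genes 2-fold higher on every probe at 24 hpf, 60 had 2 or more probes well above background on all 4 arrays, and at 96 hpf 11 of those were higher and 46 lower on every probe in the array labelled copper. Of the 52 genes 2-fold lower, 44 were so measured, and at 96 hpf 18 were higher and 18 lower. Over all 6289 genes so measured, 1619 were higher and 3187 lower at 96 hpf. Metallothionein mt2 was at 0.58 at both ages. For the genes higher on every probe at 24 hpf the median difference between the ages, 96 hpf minus 24 hpf over both treatments, was -0.60, against -0.19 for the lower genes and -0.36 over all measured genes. Whether a difference in developmental stage between the 24 hpf samples took part in these values was not tested.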

How the data were processed

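Per the labels' protocols, whole-embryo RNA was isolated with TRIzol; the design text names Quick Amp labelling (protocol 5.7) and image analysis in Feature Extraction 11.0.1.1. In the deposited scanner data each spot has a background-subtracted intensity, not scaled between arrays, per the file headers. The authors normalized by quantiles in GeneSpring GX 11.5.1 and selected by fold change, per the design text. The authors' deposited table of log2 fold changes served only for direction and for probe coordinates on Zv9, the build its scaffold names carry; 16 columns of single-array values were not used here.

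Here log2 intensity was averaged over spots, without control spots and spots flagged as outliers (34 probes removed, 43569 kept), and quantile-normalized over the 4 arrays (Python 3.11.15, pandas 2.3.3, numpy 2.4.6). Through RefSeq accessions and the GRCz12tu table, used for names and gene spans, 25957 probes were named and 17612 were not. Both 24 hpf arrays held 33722 probes well above background, and 5138 genes with exactly 1 such probe were left out. A gene's value is the mean over its probes and its SD is the spread between probes of the same arrays, not between embryos. At 24 hpf the array labelled copper had a median signal of 366.4, against 162.2 for the array labelled control, and no spot was saturated. Spots of the same probe differed by a median SD of 0.05 to 0.08 (log2). The number of arrays limits the precision.

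Genes named were drawn from the 15 agreeing genes in each direction with the largest weakest-probe difference that kept their sign under 3 other normalizations (clone names left out, 8 of them on the lower side), up to 4 genes from each list with the largest weakest-probe difference, the copper and metal genes, and the 4 split genes with the widest probe range; some genes that this takes are not reported here; other list members named with a value were chosen after their values were seen. The 52 lists and the members were chosen with earlier results of these data known. Alternatives were 75th-percentile scaling, normexp (limma 3.58.1, R 4.3.3, offset 50) on median spot and background intensity, loess (statsmodels 0.14.6, fraction 0.4), quantile normalization over the 24 hpf arrays, other filters, and the treatment as file names give it. The steps were tested on simulated data.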

Additional observations from a re-analysis of the deposited data

Results flagged for a closer look

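A small number of genes differed by 2-fold or more on every probe in one direction at 24 hpf and in the other direction at 96 hpf. The difference between the ages was not tested, since each age has 1 array per treatment. The digestive protease gene ctrl was at -1.17 at 24 hpf and 5.31 at 96 hpf, labelled copper minus labelled control. The bile acid carrier slc10a2 was at -1.05 at 24 hpf and 2.06 at 96 hpf. The clone-named genes si:ch211-240l19.6 and zgc:158432 were at -1.07 and -1.11 at 24 hpf, and at 4.58 and 3.50 at 96 hpf. The DNA glycosylase gene tdg.1 went the opposite way, at 1.31 at 24 hpf and -1.51 at 96 hpf.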

How the results depend on the processing

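No paired analysis was possible because each group holds 1 array. Genes 2-fold higher and lower on every probe numbered 72 and 52 as reported, 132 and 18 under 75th-percentile scaling, 36 and 13 under normexp, and 20 and 9 among genes with 3 or more probes; grouping probes by accession, an alternative chosen after seeing the data, gave 80 on the lower side. Genes agreeing in sign numbered 470 higher and 371 lower with 3 or more probes. All 72 and all 52 kept their sign on every probe under 75th-percentile scaling, normexp and loess. Of the 3341 agreeing genes 2219 kept their pattern under 75th-percentile scaling, 3081 under normexp and 2923 under loess. Opposite signs on every probe were seen in 118 of them under 75th-percentile scaling, 20 under loess and 3 under normexp. The list genes bco2l, ihhb and loxl5b, not described above, were lower on every probe after quantile normalization over the 4 arrays. Under 75th-percentile scaling their means were 0.0553, 0.0356 and 0.0443, where ihhb was higher on every probe and bco2l and loxl5b were split. Of 52 list medians 11 changed sign under 75th-percentile scaling, 10 under loess and 4 under normexp, and the balance of higher over lower genes reversed in 9, 4 and 0 lists. By more than the spot-to-spot SD of 0.0838, 27 list medians moved under 75th-percentile scaling, 16 under loess and 6 under normexp. The cause was not tested. The median over all genes was 0.11 under 75th-percentile scaling and 0.10 under loess. With the treatment as file names give it, 1949 genes were higher and 1392 lower, 52 and 72 of them by 2-fold. Grouping by gene names in the scanner files was not run, since those files hold none. Signal over background limits the dim genes, and no array was repeated.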
